A study of Mus musculus with 4 samples.

Results

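Chemokine receptors are G protein-coupled receptors that steer leukocytes along gradients of small secreted chemokines and keep cells in place where the ligand is made. The 8 receptor genes examined were Cx3cr1, Ccr2, Ccr1, Cxcr2, Cxcr6, Cxcr3, Ccr7 and Cxcr4, taken as a fixed list of gene names, and all 8 were found among the 16798 genes measured. Their messenger RNA was followed across the cell classes, the numbered microglia states and the libraries of a single-cell RNA sequencing study of brain immune cells. The cells were CD45+ cells sorted from the cortex of mice aged 18 months. AD mice carried the APP/PS1 transgenes, a model that deposits amyloid, and ADAM mice carried APP/PS1 on an Axl-/- Mertk-/- background, so both genotypes shared the amyloid transgenes and neither group was free of them. Each genotype had 2 libraries, AD 1 and AD 2 against ADAM 1 and ADAM 2, and the labels describe them as biological replicates that each pooled 2 cortices. The sources used here do not name the promoter that drives the transgenes, and a lack of Axl and Mertk is written in the labels for the mouse, not for 1 cell type.

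In the brain, CX3CR1 is the receptor by which microglia sense the neuronal ligand fractalkine, and it is also carried by patrolling monocytes. CCR2 draws inflammatory monocytes out of the bone marrow towards CCL2 and related ligands, CCR1 responds to CCL3 and CCL5, and CXCR2 to the neutrophil-attracting CXC chemokines. CXCR6 and CXCR3 mark effector and tissue-resident lymphocytes, CCR7 guides naive lymphocytes, B cells and mature dendritic cells to lymphoid tissue, and CXCR4 binds CXCL12, which retains leukocytes in the marrow and is used by many cell types.

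Unique molecular identifiers (UMIs), which count captured RNA molecules, totalled 14963857 to 29831947 per library. Of 15451 cells, 14628 had 1 of the authors' 9 classes, and 9077 microglia had 1 of 7 numbered states. Microglia numbered 1600, 3100, 2317 and 2060 for the libraries AD 1, AD 2, ADAM 1, ADAM 2, the order of all values below. ADAM 2 stood apart: it held 580 of the 757 neutrophils, and in its monocytes the 8 neutrophil markers summed to 70682 CPM (UMIs of a gene or list scaled to 1e6 UMIs in the summed cells), against 184 to 4240.5 CPM in the other libraries. Axl was 104 and 67.1 CPM in AD microglia and 5.37 and 7.22 CPM in ADAM microglia, while Mertk was 274, 296, 246 and 274 CPM. Reads from the 3′ end check a deletion only where they fall inside it, and the sources used here do not give its place, so the Mertk level checks nothing. The macrophage class carried macrophage markers (2541 to 4068 CPM, against 22.3 to 132 CPM in microglia) together with microglial markers (3226 to 6828 CPM, against 11286 to 15265 CPM in microglia). The proliferating class mixed lineages, with T cell markers at 4606, 2492, 1001 and 488 CPM. Between libraries, 24 barcode sequences recurred, covering 48 cells. Levels are CPM of the UMIs summed over a class or state in 1 library. Since the authors' clustering could use these genes, differences between classes and states are descriptions with no test. Endothelial cells and oligodendrocytes, with as few as 3 cells in a library, are not ranked.

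Cx3cr1 (chr9:119901616-120069879, minus strand, GENCODE vM21 on GRCm38) was the most abundant of the 8 receptors and was concentrated in microglia. Its level in microglia was 2418, 2728, 2331 and 2286 CPM, and the microglia class, with its T cell doublets, held 94.7% of its 152449 UMIs. Every library was high, with the ADAM libraries just below the AD libraries. Macrophages came next at 989, 1618, 1211 and 838 CPM, and that range did not overlap the microglial one. After each cell was thinned to 1000 UMIs, to set classes at an equal depth, Cx3cr1 UMIs were found in 81, 86.9, 80.7 and 80.2% of microglia (unthinned, 95.9, 98.1, 95.2 and 94.9%), with exact Clopper-Pearson 95% intervals spanning 78.4 to 88.1%. Such intervals and all counting limits here cover counting error alone. The annotated locus overlaps 9 other genes of the reference, among them Wdr48, Gorasp1 and Csrnp1, and the sources used here do not say how reads in the overlaps were assigned.

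Cx3cr1 readings outside the mononuclear phagocytes stood beside microglial RNA. Neutrophils, a class that should lack the gene, gave 985, 859.6, 567 and 689 CPM, and the 8 microglial markers reached 5182, 4215, 2631 and 2909 CPM in the same neutrophils. For each microglial marker UMI there were 0.190, 0.204, 0.216 and 0.237 Cx3cr1 UMIs in neutrophils, against 0.158, 0.193, 0.154 and 0.203 in microglia. B cells gave 17, 1153, 366 and 503 CPM, lowest in AD 1, where the microglial markers in B cells were also lowest (212, 4389, 3518 and 2971 CPM). T and NK cells gave 58.4, 52.3, 50.8 and 52.8 CPM. Their thinned share of 4.88, 5.12, 4.46 and 5.51% stood at or below that in neutrophils (14.3, 17.4, 9.09 and 15.6%) in each library. Microglial markers were also lower in T and NK cells than in neutrophils, so this comparison cannot decide whether the T and NK reading is background. The T and NK ratio was 0.203, 0.177, 0.0976 and 0.144 Cx3cr1 UMIs per microglial marker UMI. Of the groups defined below, the NK group gave 175, 0, 204 and 18.6 CPM from 15 UMIs in 39 cells. The Cd8 group gave 61.9, 55.3, 49.7 and 53.9 CPM. In monocytes the ratio was higher than in microglia, at 0.260, 0.502, 0.678 and 0.446 Cx3cr1 UMIs per microglial marker UMI. Macrophages gave 0.200, 0.237, 0.221 and 0.260, near the neutrophil ratios. The part of microglial RNA in the Cx3cr1 of macrophages was not tested.

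**Figure D1:**
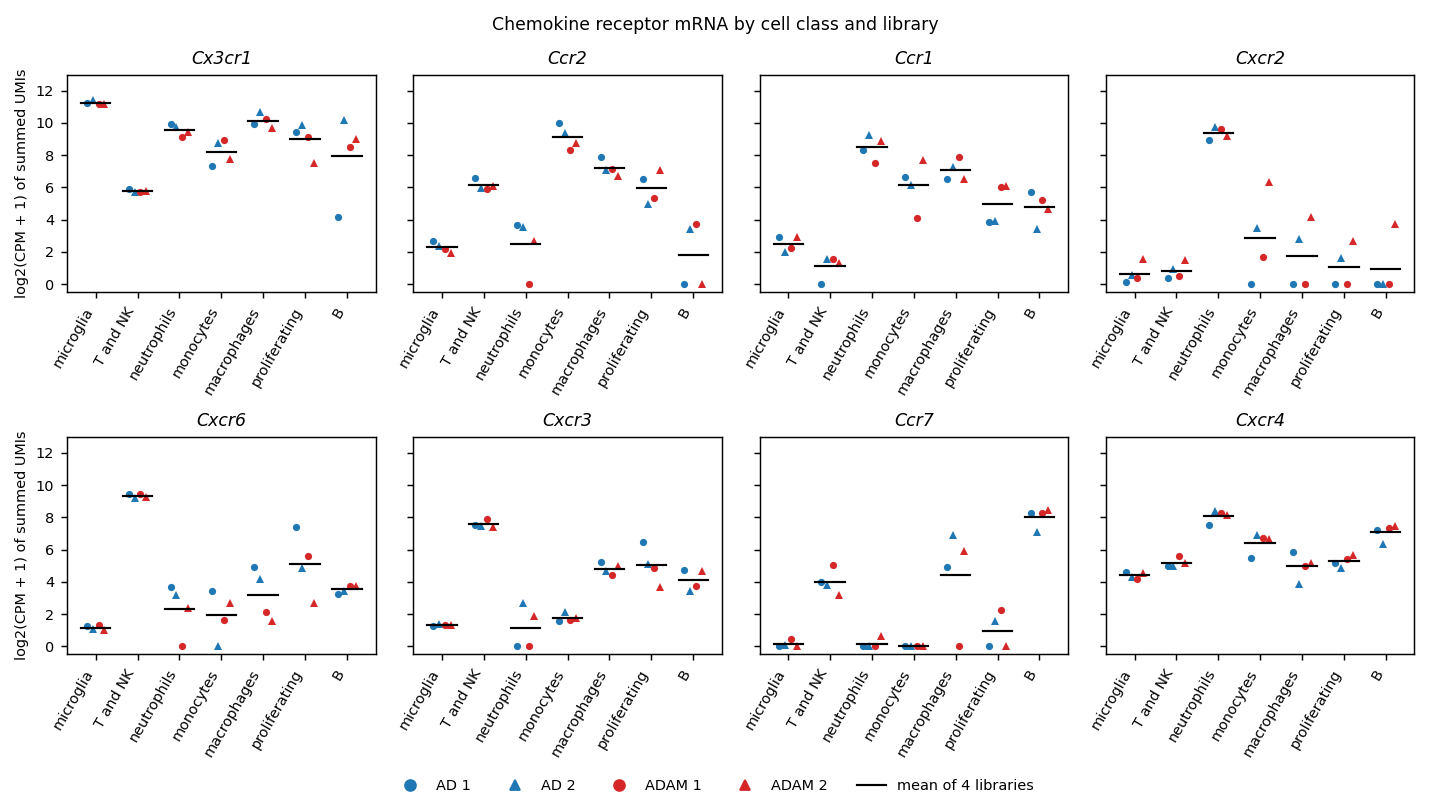
Level of each receptor, as log2(CPM + 1) of the summed UMIs, in 7 cell classes (x axis) for each library. Blue points are AD, red points ADAM, circles libraries numbered 1 and triangles libraries numbered 2, and the black line is the mean of the 4 log2 values. Cx3cr1 peaks in microglia, Ccr2 in monocytes, Cxcr2 in neutrophils, Cxcr6 and Cxcr3 in T and NK cells, and Ccr7 in B cells, while Cxcr4 spans all classes.

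Ccr2 (chr9:124101950-124113557, plus strand) was the monocyte receptor of the set. Monocytes held 56.3% of its 3733 UMIs, at 1016, 654, 322 and 433 CPM, and T and NK cells held 22.2%, at 95.2, 61.8, 58.3 and 66.5 CPM. AD 1 was highest in both classes. Macrophages gave 232, 135, 141 and 101 CPM, below monocytes with no overlap of the ranges, and overlapping the proliferating class at 92.7, 30.1, 39.6 and 135 CPM. Microglia, which are taken to lack CCR2 in the adult brain, gave 5.48, 4.05, 3.47 and 2.77 CPM. Thinned shares were 50, 24.2, 12.6 and 22.9% of monocytes (unthinned, 72.5, 63.5, 31.8 and 54.5%), 0.461, 0.399, 0.23 and 0.158% of microglia and 0, 1.52, 0 and 0.533% of neutrophils, the class set as background, where the counts of 0 allow up to 10.7% in AD 1 and 27.3% in ADAM 1. The microglial shares lay inside or below the counting intervals of the neutrophil shares, so no microglial Ccr2 is read from them.

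Ccr1 (chr9:123962124-123968692, minus strand) was a myeloid receptor shared by several classes. Neutrophils gave 325, 617, 181 and 474 CPM, macrophages 91.4, 155, 239 and 91.6 CPM and monocytes 99.1, 71, 16 and 205 CPM. The ranges of these 3 classes overlapped, so their order is not settled by these libraries, and neutrophils of ADAM 1 numbered 11 cells. Microglia and T and NK cells were far lower, at 6.53, 2.95, 3.74 and 6.53 CPM and 0, 1.9, 1.97 and 1.49 CPM. Thinned shares were 39.3, 46.2, 36.4 and 41.2% of neutrophils, against 2.56, 2.56, 0 and 0% of B cells as background (the counts of 0 allow up to 17.6% and 15%). In the monocytes, ADAM 2 was highest and ADAM 1 lowest, and ADAM 2 was also the library with most neutrophil markers in that class. When monocytes with any UMI of the neutrophil genes Retnlg, Ly6g or Mmp8 were left out, Ccr1 in monocytes was 84.2, 38.8, 13.7 and 48.7 CPM.

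Cxcr2 (chr1:74153989-74161246, plus strand), the receptor for the neutrophil-attracting CXC chemokines, was found mostly in neutrophils, which held 85.2% of its 1739 UMIs at 487, 859.6, 774 and 579.6 CPM. Microglia and T and NK cells, the background classes, stood at 0.117 to 1.92 CPM and 0.309 to 1.86 CPM. Thinned shares were 50, 63.6, 54.5 and 46.2% of neutrophils and 0, 0.0333, 0.046 and 0.263% of microglia (the count of 0 allows up to 0.198%). Monocytes gave 0, 10.1, 2.14 and 81.3 CPM, high in ADAM 2 alone. Of the 177 monocyte UMIs of Cxcr2, 176 lay in the 215 monocytes with neutrophil UMIs and 1 in the other 348, so the monocyte reading moved with neutrophil RNA in the same cells.

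Cxcr6 (chr9:123806475-123811760, plus strand) and Cxcr3 (chrX:101731535-101734269, minus strand) were lymphocyte receptors. T and NK cells held 96.5% of the 7752 Cxcr6 UMIs, at 688, 593, 694 and 603 CPM, and 88.8% of the 2457 Cxcr3 UMIs, at 179.5, 172, 241 and 166 CPM. Cxcr6 was as high in ADAM 1 as in AD 1, and Cxcr3 was highest in ADAM 1. In no other class did Cxcr6 or Cxcr3 reach the T and NK range in any library. The proliferating class followed for both, overlapping with macrophages, at 168, 28.1, 47.3 and 5.31 CPM and 89.2, 34.1, 28.1 and 11.7 CPM. Cxcr6 UMIs were found in 45.3, 44.1, 47.3 and 44.9% of thinned T and NK cells (unthinned, 76.6, 77.9, 78.6 and 77.6%) against 0.0659, 0.0665, 0.23 and 0.105% of microglia. For Cxcr3 the thinned shares were 15.8, 17.6, 22 and 16.9% and 0.198, 0.233, 0.184 and 0.263%. The Cxcr6 gene overlaps Fyco1 on the opposite strand, so strand can tell apart reads inside the overlap. The sources used here do not say how those reads were assigned.

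Within T and NK cells, 2372 had a Cd8a or Cd8b1 UMI without Cd4 and 199 had Cd4 without Cd8. A further 39 had the NK genes Ncr1 or Klrb1c with no UMI of the Cd3, Cd4 or Cd8 genes, and 655 could not be placed. A cell may lack a UMI for want of depth, so these are groups by UMIs, not by protein. Cxcr6 was 613, 582, 644 and 607 CPM in the Cd8 group and 837, 641, 480.4 and 547 CPM in the Cd4 group, which overlapped. The NK group, with as few as 6 cells in a library, gave 117, 0, 305 and 92.9 CPM of Cxcr6, below the Cd8 group in every library. Ccr2 ran the other way, at 466, 295, 153 and 242 CPM in the NK group and 62.4, 51.1, 49.2 and 51.1 CPM in the Cd8 group, with no overlap. The NK values rest on 41 UMIs in the 39 cells. In AD 2 a Ccr2 UMI was found in 16.7% of 6 NK group cells, and in 0% after thinning, against 4.29% of thinned Cd8 group cells. The Cd4 group stood between, at 135, 71.2, 71.2 and 82.9 CPM.

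In pairs of receptors within single T and NK cells thinned to 1000 UMIs, Cxcr6 was less frequent in cells with a Ccr7 UMI. Cxcr6 was found in 15.4% of the 26 cells with a Ccr7 UMI, a count of 4 cells, and in 45.6% of those without one. Unthinned, 41 cells had both, and the shares were 40.6% and 78.8%. By library, the unthinned share with Ccr7 ran from 26.3% (AD 2) to 64.3% (ADAM 2, against 77.9% without Ccr7). For Cxcr3 and Cxcr6 the thinned shares were 49.3% and 44.5%, and for Cxcr4 and Cxcr6 44.0% and 45.4%. Where no library is named, these are counts of cells pooled over libraries, and none carries a test.

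Because Cxcr6 and Cxcr3 were both confined for the most part to T and NK cells, their promoters are shown side by side. The windows run from 250 bases before to 50 bases after the RefSeq gene start on GRCm38.p6, Cxcr6 at chr9:123806227-123806526 on the plus strand and Cxcr3 at chrX:101734098-101734397 on the minus strand. Capitals mark the RUNX core TGTGGT (on the other strand ACCACA) and, in Cxcr3, also the PU.1 core GAGGAA (on the other strand TTCCTC).
Cxcr6: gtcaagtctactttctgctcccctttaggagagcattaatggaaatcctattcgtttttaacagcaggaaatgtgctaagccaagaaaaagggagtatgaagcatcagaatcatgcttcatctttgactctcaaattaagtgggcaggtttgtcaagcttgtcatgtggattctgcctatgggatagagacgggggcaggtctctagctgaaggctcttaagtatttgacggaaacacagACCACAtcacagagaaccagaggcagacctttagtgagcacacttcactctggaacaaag
Cxcr3: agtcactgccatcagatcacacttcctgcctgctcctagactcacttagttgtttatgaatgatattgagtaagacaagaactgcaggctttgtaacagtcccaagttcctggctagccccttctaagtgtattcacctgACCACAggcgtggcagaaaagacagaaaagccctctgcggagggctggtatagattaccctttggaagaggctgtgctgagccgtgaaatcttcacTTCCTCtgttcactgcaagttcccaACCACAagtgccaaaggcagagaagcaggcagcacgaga
The RUNX core lay 10 bases before the start in Cxcr6, and 110 bases before and 11 bases after it in Cxcr3, and 16.8% of 32817 RefSeq promoter windows of the same length hold it. The PU.1 core lay 14 bases before the Cxcr3 start and is held by 28.3% of the windows. Neither motif was particular to these lymphocyte receptors. The RUNX core also lay 58 bases before the start in Ccr1 and 54 bases before it in Cx3cr1. The PU.1 core also lay 129 bases before the start in Ccr1, and 81 bases before and 6 bases after it in Cxcr2. A match describes letters, not a bound site. RefSeq promoter entries matched 7 of the 8 receptors, all but Ccr7. None of the 7 windows held the AP-1 motif TGANTCA, which 7.81% of all windows hold, and the Ccr2 window held none of the 5 motifs searched (these 3, the TATA box TATAAA, and the GC box GGGCGG, on both strands).

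Ccr7 (chr11:99144196-99155077, minus strand) was rare, with 439 UMIs in the classed cells. B cells were highest at 306, 134, 305 and 344 CPM, with AD 2 lowest, and thinned shares of 46.2, 25.6, 35.3 and 30%. T and NK cells gave 14.8, 12.7, 31.9 and 8.18 CPM, highest in ADAM 1, with thinned shares of 0.398, 0.976, 1.63 and 0.413%. Microglia, the background class, gave 6 UMIs among 9077 cells. The macrophage class gave 29.4, 117, 0 and 59.2 CPM, all 117 UMIs of it from 6 of 379 cells. Of those 6 cells, 5 had a UMI of Fscn1, 4 of Flt3 and 2 of Zbtb46, genes known from dendritic cells. In the whole class these 3 genes were found in 103, 27 and 20 of the 379 cells. Of the 6 cells, 0 had a UMI of the macrophage genes Mrc1, Pf4 or Cd163, which were found in 247, 255 and 121 of the 379.

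Cxcr4 (chr1:128588199-128592293, minus strand) was spread over several classes, and the class with most of its 2868 UMIs, microglia, held 39.7%. Neutrophils gave 185, 339.5, 309.5 and 281 CPM, B cells 144, 81.4, 159 and 172 CPM and monocytes 43.6, 118, 104 and 98.1 CPM. Neutrophils lay above the other classes in every library, and the ranges of B cells and monocytes overlapped. T and NK cells gave 30, 30.7, 47.3 and 35.3 CPM and macrophages 55.5, 13.7, 30.8 and 34.4 CPM. Microglia stood at 23.2, 18.2, 17.2 and 22.1 CPM, with a large spread between states.

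Between microglia states, Cx3cr1 and Cxcr4 differed in opposite directions in the most numerous states, 0 and 5, which held 4836 and 2718 cells. Cx3cr1 was 3710.5, 3429.9, 3100.0 and 3335 CPM in state 0 and 1435, 1383, 1257 and 1479.5 CPM in state 5, that is 2.59, 2.48, 2.47 and 2.25-fold lower within each library. Cxcr4 was 0.804, 1.02, 1.33 and 2.64 CPM in state 0 and 43.2, 56, 45.8 and 44.9 CPM in state 5. The Cxcr4 ratio, from 3, 14, 11 and 15 UMIs in state 0, was 53.8 (exact 95% counting interval 18.1 to 263), 55.0 (32.3 to 102), 34.4 (18.8 to 69.9) and 17.0 (10.1 to 30.9). The direction held in 4 of 4 libraries for both genes. Of thinned cells, 4.3, 4.29, 4.29 and 4.42% of state 5 and 0, 0, 0.0805 and 0.365% of state 0 had a Cxcr4 UMI (unthinned, 21.4, 29.8, 21.6 and 24% and 0.392, 0.649, 0.643 and 1.7%), and the counts of 0 in state 0 allow up to 0.397% in AD 1 and 0.15% in AD 2. The thinned share for Cx3cr1 was 95.5, 94.8, 92.4 and 92.7% in state 0 and 70.6, 70.1, 66.5 and 73.5% in state 5.

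The remaining states filled in the order. Cx3cr1 stood at 3420.1, 3533, 2704 and 3096 CPM in state 1 and 1749.8, 3504, 2469 and 1624 CPM in state 2, whose ranges overlapped those of state 0. It was lowest in state 3, at 694, 637, 639.6 and 662 CPM, overlapping state 6 at 975, 481, 768 and 959.8 CPM. State 4 gave 1361, 1247, 1307 and 922 CPM, overlapping state 5. Cxcr4 in state 4 was 27.8, 36, 16.1 and 34.3 CPM and in state 6 51.1, 48.1, 29.6 and 15.5 CPM, overlapping with each other and, for state 6, with state 5. In states 1 and 3 it stayed at or below 7.92 CPM from 8 and 5 UMIs. State 2, whose cells had median depths of 809 to 887 UMIs, gave 21 Cxcr4 UMIs, and haemoglobin genes reached 169838 CPM there in ADAM 2 and choroid plexus genes 61628 CPM in AD 1.

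Ccr1 marked state 6, the smallest state at 130 cells. It was 89.5, 84.2, 55.4 and 44.2 CPM there and 4.82, 2.62, 3.27 and 5.1 CPM in state 0, without overlap, from 70 UMIs, although AD 2 contributed 9 cells. Monocyte markers summed to 889, 613, 321 and 498 CPM in state 6, and the part of monocyte RNA in its Ccr1 was not tested. The other receptors were scarce in microglia, with 222 UMIs of Ccr2, 90 of Cxcr3, 70 of Cxcr6, 40 of Cxcr2 and 6 of Ccr7 over the 9077 cells. Ccr2 reached at most 12 CPM in any state and library. Cxcr6 was highest in state 2, at 31.2, 10.5, 9.16 and 8.75 CPM from 10 UMIs.

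**Figure D2:**
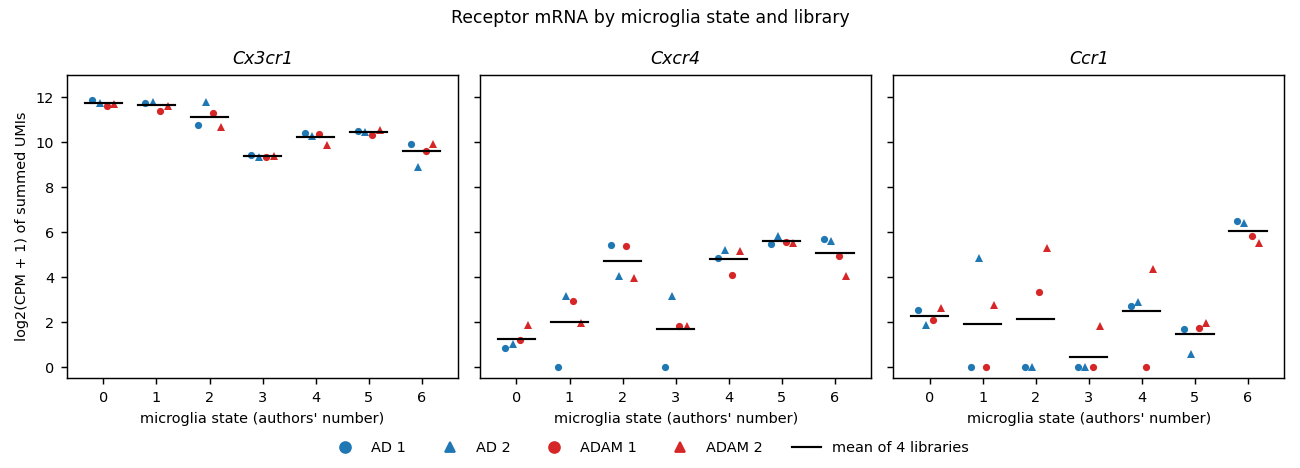
Level of Cx3cr1, Cxcr4 and Ccr1, as log2(CPM + 1), by the authors' microglia state (x axis) and library, with symbols as for the classes and the mean of the 4 log2 values as a line. Between states 0 and 5 Cx3cr1 goes down and Cxcr4 goes up in all 4 libraries, and Ccr1 is highest in state 6.

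The promoters of Cx3cr1 and Cxcr4 are shown because these 2 genes differed in opposite directions between states 0 and 5. The Cx3cr1 window is chr9:120068247-120068546 and the Cxcr4 window chr1:128592250-128592549, both on the minus strand of GRCm38.p6. Capitals mark the RUNX core in Cx3cr1, and in Cxcr4 the TATA box TATAAA (on the other strand TTTATA, here overlapping), as well as the GC box GGGCGG (on the other strand CCGCCC).
Cx3cr1: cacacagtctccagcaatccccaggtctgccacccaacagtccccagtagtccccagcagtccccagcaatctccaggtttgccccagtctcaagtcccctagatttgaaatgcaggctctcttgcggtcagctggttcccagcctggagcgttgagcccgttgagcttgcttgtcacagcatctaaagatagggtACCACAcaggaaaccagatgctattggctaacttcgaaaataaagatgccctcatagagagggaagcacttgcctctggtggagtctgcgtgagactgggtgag
Cxcr4: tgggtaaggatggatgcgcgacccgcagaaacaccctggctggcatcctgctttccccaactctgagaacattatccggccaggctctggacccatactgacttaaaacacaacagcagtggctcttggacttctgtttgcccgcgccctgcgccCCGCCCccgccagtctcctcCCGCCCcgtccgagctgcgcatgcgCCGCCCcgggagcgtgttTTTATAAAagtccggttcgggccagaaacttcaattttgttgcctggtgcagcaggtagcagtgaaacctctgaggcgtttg
The Cxcr4 window had 59.3% G and C, 20 CpG dinucleotides, 3 GC boxes and TATA boxes whose first bases lie 32 and 30 bases before the start. The Cx3cr1 window had 54.3% G and C, 5 CpG, no TATA or GC box by these letters, and 1 RUNX core 54 bases before the start. Over all windows the medians were 52.7% and 7 CpG, and 13.6% hold the TATA box and 35.6% the GC box. Among the 7 receptor windows, only that of Cxcr4 held either of those motifs.

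Monocytes split into groups that carried Ccr2 and Cx3cr1 in opposite measure. Classical monocytes are known for Ly6c2 and CCR2, and patrolling monocytes for Ace, Treml4 and CX3CR1. Of 563 monocytes, 202 had Ly6c2 UMIs without Ace or Treml4, 219 had Ace or Treml4 without Ly6c2, 97 had both and 45 neither. Ccr2 was 1193, 976, 868 and 646 CPM in the Ly6c2 group and 52.7, 110.5, 90.7 and 66.3 CPM in the Ace or Treml4 group. The ranges were far apart, although the AD 1 value in the Ace or Treml4 group rests on 2 UMIs in 12 cells. Cx3cr1 was 116, 189, 344 and 75.8 CPM in the Ly6c2 group and 395, 898, 603 and 395 CPM in the Ace or Treml4 group, higher in the latter in each library. In Ly6c2 group cells with no neutrophil UMIs Cx3cr1 was 127, 148, 571 and 208 CPM, from 44, 15, 9 and 5 cells. By that measure the ADAM 1 groups lay close together. Cxcr4 followed Cx3cr1, at 40.7, 78.7, 34.9 and 61.8 CPM and 79, 228, 156 and 164 CPM, and again was higher in the Ace or Treml4 group in 4 of 4 libraries. In AD 1 the Cxcr4 values rest on 14 UMIs in 57 cells and 3 UMIs in 12 cells, too few to settle the direction there. Over single monocytes thinned to 1000 UMIs, Cx3cr1 was found in 16.5% of those with a Ccr2 UMI and 29.8% of those without. Of macrophages the shares were 33.3% of 27 cells and 47.6%, and unthinned 67.1% and 70.6%. By library, the thinned macrophage share was higher with Ccr2 in AD 1 (50% against 36.7%) and lower with it in AD 2, ADAM 1 and ADAM 2. The shares of both classes pool cells over libraries and carry no test.

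**Figure D3:**
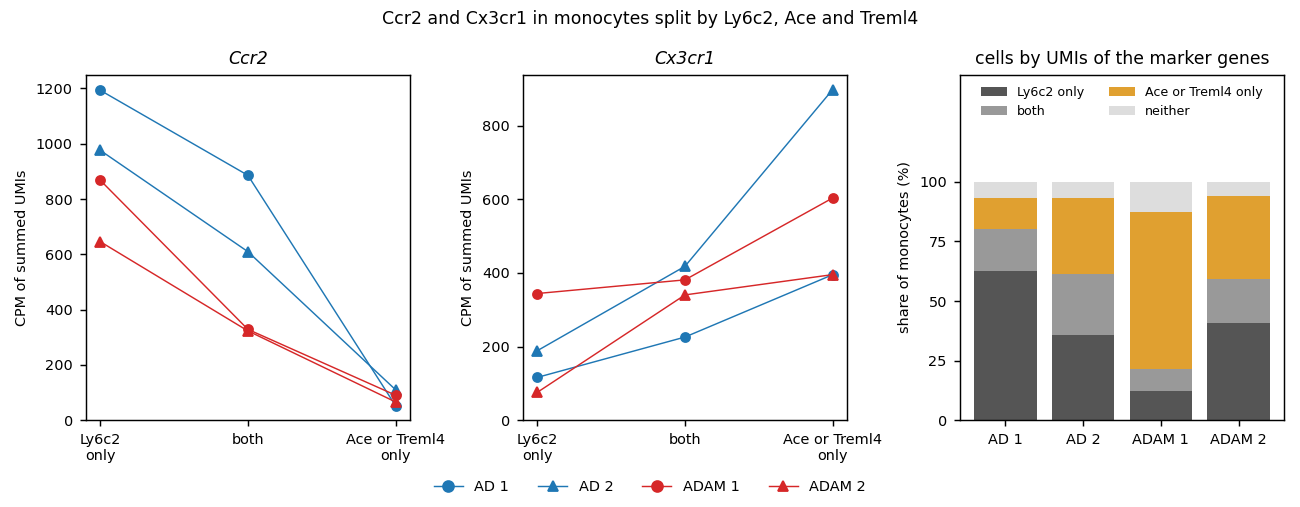
Ccr2 (left) and Cx3cr1 (middle), in CPM of the summed UMIs, in monocytes with Ly6c2 UMIs, with both kinds of marker, and with Ace or Treml4 UMIs, 1 line per library, and (right) the share of each library's monocytes in each group. Ccr2 declines and Cx3cr1 climbs from left to right in every library, and the share of the Ace or Treml4 group runs from 13.2% in AD 1 to 65.5% in ADAM 1.

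In a sum over many cells, fewer cells that carry a gene and less RNA per cell cannot be told apart. The genotype comparison asked whether loss of Axl and Mertk changed the receptors within a cell class or state. It was made on summed counts with the quasi-likelihood test of edgeR, with libraries as replicates and p-values adjusted by Benjamini-Hochberg over all genes tested in a set, in the 10 sets that had at least 20 cells in every library. Of the 8 receptors, 1 to 6 passed the count filter in a set (7 in at least 1 set, Cxcr2 in none), giving 40 log2 folds of ADAM over AD. None of the 40 had an adjusted p under 0.05 in edgeR, and 4 had an unadjusted p under 0.05. DESeq2 called 0 of 63 folds, with 3 at an unadjusted p under 0.05, and limma-voom 0 of 40, with 5. Few genes of any kind were called: 0.0419% of those tested in microglia, 0.241% in T and NK cells, 0.155% in monocytes, 0.0154% in macrophages and 0.0842% in proliferating cells. Within states the background was 0.101% in state 0, 0.0635% in state 2, 0.313% in state 3, 0.127% in state 4 and 0.153% in state 5. The smallest sets passed few receptors through the filter, so many receptors were not testable there.

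Cx3cr1 differed little between genotypes in microglia. The microglial fold was -0.10 (SE 0.13) (edgeR adjusted p = 0.9999), and in states 0 and 5 it was -0.065 (SE 0.15) and -0.049 (SE 0.12). ADAM lay below AD without overlap in microglia and state 0, while state 5 overlapped. In proliferating cells, where microglial markers were also lower in ADAM, the Cx3cr1 fold was -0.99 (SE 0.52) with an edgeR adjusted p of 0.666. In Cxcr6 and Cxcr3 of T and NK cells the folds were 0.029 (SE 0.13) and 0.22 (SE 0.16), with overlapping libraries. Cxcr4 of T and NK cells was higher in both ADAM libraries (values above), with a fold of 0.45 (SE 0.19), an unadjusted p of 0.0292 and an edgeR adjusted p of 0.861 (0.399 to 0.9999 over its alternatives).

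Ccr2 gave folds below 0 in 6 of the 7 sets where it was tested, the states being parts of the microglia and all sets sharing the 4 libraries. Microglia and states 0 and 5 are among the 6, and no microglial Ccr2 was read from such levels above. Over all genes tested in these 7 sets, 48.9% (T and NK cells) to 52.1% (proliferating cells) of folds lay above 0. The count of sets is thus no measure of a common direction. In monocytes both ADAM libraries (322 and 433 CPM) lay below both AD libraries (1016 and 654 CPM), with a fold of -1.08 (SE 0.3), an unadjusted p of 0.00813 and an edgeR adjusted p of 0.313. Without a count filter the edgeR adjusted p was 4.57e-04, where 2.12% of all genes were called, and without ADAM 2 it was 0.0387 at a fold of -1.42, where 1.34% were. Over the other settings the adjusted p ran from 0.0820 to 0.989. Beside it, the share of monocytes in the Ace or Treml4 group was 13.2%, 31.7%, 65.5% and 35%, and monocytes with neutrophil UMIs made up 17.6%, 27.9%, 8.78% and 71.4%. In the Ly6c2 group alone, Ccr2 was again higher in both AD libraries. In Ly6c2 monocytes with no neutrophil UMIs the libraries overlapped, at 1213, 931, 1099.6 and 346 CPM from 44, 15, 9 and 5 cells. Without monocytes carrying neutrophil UMIs, an alternative chosen after seeing the data, the fold over all monocytes was -1.91 (edgeR adjusted p = 0.165). In the other sets the Ccr2 folds were -0.53 (SE 0.28) in microglia, -0.32 (SE 0.19) in T and NK cells, -0.55 (SE 0.33) in macrophages and 0.71 (SE 0.72) in proliferating cells.

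Ccr1 in the proliferating class had the smallest p of all receptor folds. It stood at 13.7, 14, 65.1 and 68 CPM, so the ADAM libraries were higher with a wide gap. The fold was 2.39 (SE 0.46), with an unadjusted p of 6.37e-04 and an edgeR adjusted p of 0.112. The edgeR adjusted p was 0.00147 without a count filter, where 2.46% of all genes were called, and 0.0477 with the replicate number as a block, where 1.12% were. With the numbers crossed, an alternative chosen after seeing the data, it was 0.00881, where 2.41% were. Without ADAM 1 it was 9.32e-05 and without ADAM 2 4.53e-04, but there 10.3% and 10.5% of all genes passed, against 0.0842% with all libraries. In those fits the lone ADAM library is assumed to vary like the AD libraries, so these p-values lend the fold no support. Over all its alternatives the adjusted p ran up to 0.675. The same class changed in make-up between libraries: macrophage markers were 17.2, 96.3, 519.8 and 195 CPM, neutrophil markers 51.5, 219, 161 and 17802 CPM, T cell markers 4606, 2492, 1001 and 488 CPM and microglial markers 5429.7, 5107, 3804 and 1203 CPM. The part of this make-up in the Ccr1 fold was not tested. Cxcr3 in that class had a fold of -1.46 (SE 0.62) (edgeR adjusted p = 0.551) and Cxcr6 one of -1.74 (SE 1.2), and the T cell markers were also lower in both ADAM libraries. Without ADAM 1, 4 receptors were called there (Cxcr3, Cx3cr1, Ccr1 and Ccr2), beside 750 of all 7283 genes tested.

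Of 44 folds, the interaction included, 25 changed sign when 1 library was left out. Ccr1 in monocytes had a fold of 0.56 (SE 1.49), with the ADAM libraries at the extremes, and was called in opposite directions without ADAM 1 (1.43) and without ADAM 2 (-2.44), where 4.37% and 1.34% of all genes were called. Without ADAM 1, Cxcr2 also passed the filter in monocytes and was called at 4.02, with ADAM 2, the library rich in neutrophil markers, then the lone ADAM library. Ccr7 in macrophages had a fold of -1.62 (SE 1.9), resting on the 6 cells above, and without ADAM 2 it was called (0.267% of all genes were) with the remaining ADAM library at 0 UMIs, so its fitted value is no bound.

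**Figure D4:**
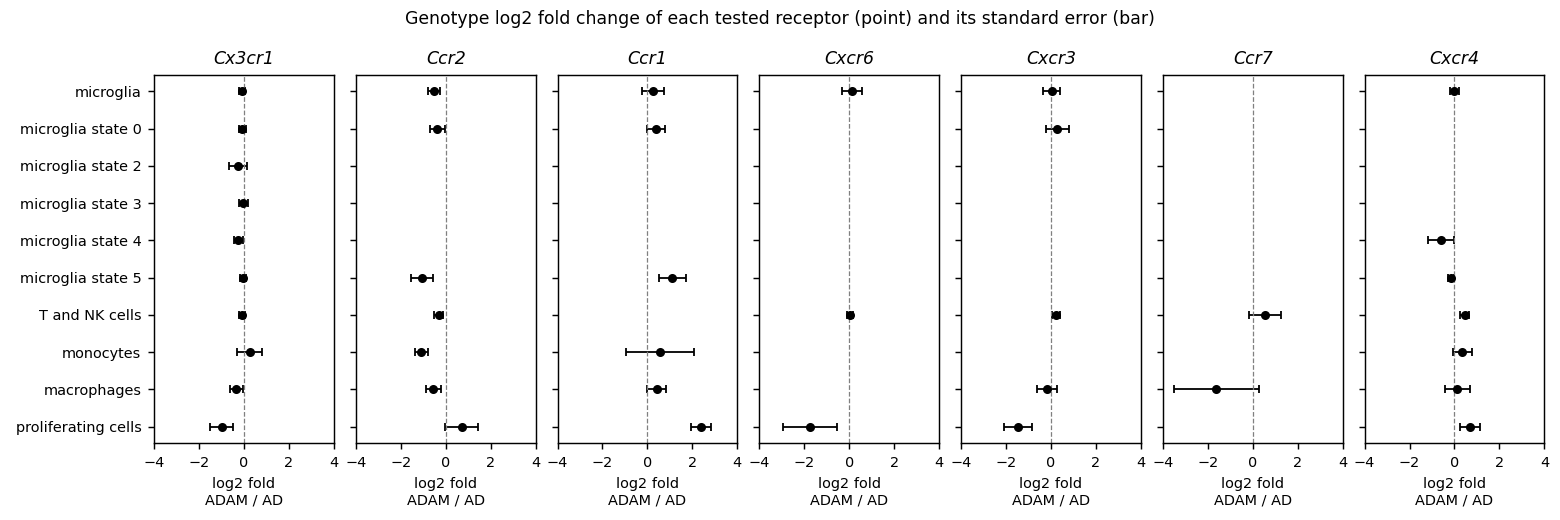
Log2 fold of ADAM over AD (x axis) with its standard error for each receptor that passed the count filter in each of the 10 cell sets (y axis), from edgeR. The points of Cx3cr1 lie near 0 in the microglial sets, and the widest departure is Ccr1 in proliferating cells at 2.39, with none of the 40 past an adjusted p of 0.05.

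Whether the contrast between states 5 and 0 differed by genotype was tested as an interaction in edgeR with library as a term. Of the 4 receptors tested, 0 were called, beside 1.02% of 11132 genes. For Cxcr4 the interaction was -1.23 (SE 0.45), with an unadjusted p of 0.00635 and an edgeR adjusted p of 0.226. That value rests on the few state 0 UMIs above, which were highest in ADAM 2, and without ADAM 2 it was -0.71. Over its other settings the adjusted p ran from 0.0607 to 0.849. For Cx3cr1 the interaction was 0.011 (SE 0.14).

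The other chemokine receptors, ligands and signalling genes were described from fixed lists. Of 14 other chemokine receptors, 1 to 4 were tested in a set and 0 were called in any set. Over all classed cells the atypical receptor Ccrl2 was at 72.4, 78.6, 59.9 and 129 CPM, highest in ADAM 2, with 86.5% of its UMIs in microglia. Ccr9, a receptor for CCL25, was at 3.21, 0.808, 2.14 and 1.96 CPM, and at 9.89, 5.39, 5.91 and 7.81 CPM in T and NK cells. T and NK cells held 56.7% of its 150 UMIs, and the macrophage class, with 379 cells, held 28.7%.

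Ligands came from other cells than their receptors in several cases. For Cxcr6 of T cells the ligand Cxcl16 was at 116, 108, 112 and 124 CPM in microglia, which held 88.2% of its UMIs, and at 1.24, 1.9, 4.73 and 3.72 CPM in T and NK cells. For Ccr1, the ligand most abundant over all classed cells was Ccl5, with 94.2% of its UMIs in T and NK cells. For Ccr2 it was Ccl12, at 189, 201, 319 and 474 CPM in microglia, and for Cxcr3 it was Cxcl10, at 18.8, 23.7, 41.7 and 43.9 CPM there. Microglia held 83.8% of the Ccl12 UMIs, and the 379 cells of the macrophage class, which also carried Ccr2, held 10.8%. Of the Cxcl10 UMIs, microglia held 54.7% and T and NK cells, the main class of Cxcr3 itself, held 32.0%. Cxcl2, for Cxcr2, was at 823, 1816, 645 and 1157 CPM in the neutrophils themselves. Cxcl12, the ligand of Cxcr4, had 94.6% of its UMIs in the 40 endothelial cells, and the neuronal ligand Cx3cl1 was near 0 in this immune sort, with 32 UMIs. Ccl19, Ccl21a and Cxcl5 were not analysed here.

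Of 19 ligands, 14 were tested in microglia and 0 were called there, with 12 of 14 folds above 0 and a median fold of 0.47, beside a median of 0.0035 and 51.0% above 0 over all 11924 genes tested. In T and NK cells 1 of 9 tested ligands rose and 0 fell, Ccl12, from 2.78 and 5.07 to 19.3 and 18.6 CPM (edgeR log2 fold 2.27, SE 0.32, adjusted p = 0.00864). Microglial markers in T and NK cells were 287, 295, 521 and 366 CPM and Ccl12 was also higher in ADAM microglia (fold 1.09, SE 0.21, edgeR adjusted p = 0.716), and their part was not tested. In state 5, 1 of 10 rose, again Ccl12, at 44, 38.3, 68 and 73.6 CPM (fold 0.79, SE 0.13, edgeR adjusted p = 0.0254). In state 4, 1 of 8 rose, Ccl5, at 211, 113, 548 and 588 CPM (fold 1.88, SE 0.27, edgeR adjusted p = 0.00178), with T cell markers of 5.56, 3.27, 16.1 and 14.7 CPM in the same cells, whose part was not tested. In state 3, 1 of 7 fell, Ccl3, at 1076, 703, 396 and 286 CPM (fold -1.36, SE 0.21, edgeR adjusted p = 1.53e-04). In monocytes, macrophages, proliferating cells and states 0 and 2, 0 ligands were called. The interaction called Ccl9 (-0.84, edgeR adjusted p = 0.0108) and Ccl6 (-0.53, edgeR adjusted p = 0.0119) of 13 ligands. Ccl6 was 263, 248, 246 and 267 CPM in state 0 and 1479, 1224, 1107 and 888 CPM in state 5, and Ccl9 was 78.2, 78.5, 64.6 and 61.8 CPM and 14.9, 18.8, 8.34 and 8.06 CPM.

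Of 24 genes that carry or end receptor signals (G protein subunits, receptor kinases, arrestins, Rgs proteins and migration effectors), 15 to 24 were tested in a set. In the 10 sets and the interaction the single call was Plcb2, a phospholipase C, in state 5 (fold 1.10, SE 0.19, edgeR adjusted p = 0.0345). In microglia 23 were tested, with a median fold of -0.03.

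The genes whose pattern was most like each receptor were ranked by Pearson's r of log2(CPM + 1) over 27 sums per class and library, among 12894 genes. These sums share libraries and class make-up, so r is a description. Cx3cr1 lay closest to Itgb5, Cst3 and Lpcat2 (r = 0.974, 0.973 and 0.970). Cxcr2 lay closest to Retnlg, Gm5483 and Gm17619 (0.941, 0.939 and 0.936). Cxcr3 was followed by Fasl, Bcl11b and Cd3e (0.944, 0.940 and 0.938) and Cxcr6 by Rinl, Themis and Sit1 (0.913, 0.910 and 0.904). The broader receptors had looser neighbours. They were Cfp, Myadm and Pirb for Ccr1 (0.872, 0.841 and 0.841), AI467606, Rnf144a and 4833407H14Rik for Cxcr4 (0.879, 0.872 and 0.871), Ifi211, Hoxb4 and Dcun1d1 for Ccr2 (0.824, 0.821 and 0.811), and Ap1s3, Aff3 and Cd55 for Ccr7 (0.797, 0.781 and 0.775).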

How the data were processed

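CD45+ cells of mouse cortex were profiled by 10x 3′ single-cell RNA sequencing, per the labels' protocols, in 4 libraries. The authors deposited UMI counts per gene and cell as raw whole numbers. They also deposited, per cell, UMI and gene counts, the percent of UMIs on mitochondrial genes, a doublet score, classes and microglia states. Tools in the submitters' processing notes were Seurat 3.2.1.9002 and Cell Ranger 3.1.0, and the build was mm10. The deposited totals per cell equalled the sums of the table. The deposited classes and states were used as given, and 823 cells marked as doublets, which have no class, were left out. The 216 microglia and T cell doublets, which have a class but no state, were left out of microglial levels and tests and kept in totals over classed cells and in each class's share of UMIs. The deposited doublet score, percent and map scores entered no result.

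Counts were summed per library and set, and CPM is the count scaled to 1e6 UMIs of that sum. Genotypes were compared with edgeR 4.0.16 in R 4.3.3 (TMM scaling, a minimum count of 10 by filterByExpr, robust quasi-likelihood fit, 2 libraries against 2, adjusted p under 0.05), in sets with at least 20 cells in every library. DESeq2 1.42.0, limma 3.58.1, RLE scaling, no filter, a block for the replicate number and leaving out each library were alternatives, as were microglia without state 2 and with T cell doublets. Shares of cells used counts thinned to 1000 UMIs (2000 as an alternative), leaving out shallower cells, with exact 95% intervals. Libraries with the same number are not stated to share a litter, batch or day. The edgeR and correlation scripts were tested on simulated data. Python 3.11.15, numpy 2.4.6, pandas 2.3.3, scipy 1.17.1 and matplotlib 3.10.9 were used.

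The receptors and gene lists were chosen with earlier results of these data known. All 8 receptors are named in every set. Of the other lists, genes past the adjusted test, the 3 other receptors highest in CPM and the highest ligand of each receptor are named, as are the 3 genes most alike each receptor among genes with at least 50 UMIs. A result that this rule would name is not reported here. Gene positions are GENCODE vM21 and promoters RefSeq, both GRCm38.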

Additional observations from a re-analysis of the deposited data

Results flagged for a closer look

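Cxcr3 had genotype folds of opposite sign in microglia state 0 and in the proliferating class, with no overlap of the libraries in either. In state 0 the log2 fold of ADAM over AD was 0.28, from 1.07, 1.38, 1.45 and 1.58 CPM in AD 1, AD 2, ADAM 1 and ADAM 2, which rest on 4, 19, 12 and 9 UMIs. In proliferating cells it was -1.46, from 89.2, 34.1, 28.1 and 11.7 CPM. Neither fold passed the adjusted test in edgeR (adjusted p = 0.998 and 0.551), and the difference between them was not tested. Microglia were set as a background class for Cxcr3, so no microglial Cxcr3 is read from the state 0 levels. With 2 libraries per genotype a lack of overlap carries little weight, and its share over all genes is not given here. T cell markers in the proliferating class were 4606, 2492, 1001 and 488 CPM in the same order of libraries.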

How the results depend on the processing

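In the sets and the interaction, 0 receptors were called, and this count changed in 3 sets. In monocytes it was 1 without a count filter (276 of 13005 genes called) and 0 to 2 when 1 library was left out, with 274 of 6268 genes called without ADAM 1 and 86 of 6432 without ADAM 2, against 10 of 6460 with all libraries (without ADAM 1, Cxcr2 at 4.02 and Ccr1 at 1.43, and without ADAM 2, Ccr1 at -2.44 and Ccr2 at -1.42). In macrophages it was 0 to 1 when 1 library was left out. In proliferating cells, with 6 of 7124 genes called in the planned test, it was 1 without a filter (340 of 13802 genes), 1 with the replicate block (80 of 7124), 1 with the block crossed (172 of 7124) and 0 to 4 when 1 library was left out (750 of 7283 without ADAM 1, 778 of 7426 without ADAM 2). The receptor calls thus came in fits where calls over all genes also rose, and a lone library in a group is assumed to vary like the other group. Without ADAM 1 the folds there were Cxcr3 -2.13, Cx3cr1 -1.998, Ccr1 2.43 and Ccr2 1.41. The cause was not tested.

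Of 436 alternative folds, 379 kept their sign and side of the threshold, 45 changed sign and 0 lost a call. In all, 13 passed the threshold, 1 of them with a change of sign (Ccr1 in monocytes without ADAM 2). Apart from leaving out a library, sign changed for Cxcr4 in microglia (limma-voom 0.015, with T cell doublets 0.015), Cxcr3 there (without state 2 -0.031, with T cell doublets -0.61), Cxcr6 there (with T cell doublets -1.01), Ccr1 in monocytes (limma-voom -0.27, replicate block -0.15, block crossed -0.12, without cells with neutrophil UMIs -1.27), Cxcr4 in macrophages (DESeq2 -0.0063) and Cx3cr1 in the interaction (RLE scaling -0.0048). The T cell doublets came nearly all from AD 1, so adding them changed mainly that library. The crossed block and the removal of cells with neutrophil UMIs were chosen after seeing the data.

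Leaving out 1 library changed the sign of 25 of 44 folds, given here as lowest and highest. In microglia these were Cxcr4 -0.22 and 0.20, Cxcr3 -0.061 and 0.15, Cxcr6 -0.17 and 0.35, and Ccr1 -0.31 and 0.87. In T and NK cells they were Cxcr3 -0.073 and 0.46, Cxcr6 -0.075 and 0.13, Ccr2 -0.59 and 0.020, and Ccr7 -0.74 and 1.22. In monocytes they were Cxcr4 -0.16 and 1.24, Cx3cr1 -0.28 and 1.10, and Ccr1 -2.44 and 1.43. In macrophages they were Cxcr4 -0.77 and 1.27, Cxcr3 -0.51 and 0.12, Cx3cr1 -0.63 and 0.051, and Ccr1 -0.44 and 0.91. In proliferating cells they were Cxcr6 -3.87 and 0.034, and Ccr2 -0.38 and 1.72. In states they were Cx3cr1 -0.14 and 0.0034 and Ccr1 -0.12 and 0.73 (state 0), Cx3cr1 -0.61 and 0.22 (state 2), Cx3cr1 -0.071 and 0.026 (state 3), and Cxcr4 -0.30 and 0.052 and Cx3cr1 -0.17 and 0.064 (state 5). In the interaction they were Cx3cr1 -0.030 and 0.050, and Ccr2 -1.14 and 0.10.

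Over all genes, calls and their lowest to highest over the alternatives that keep all libraries were 5 (0 to 18) in microglia, 23 (4 to 107) in T and NK cells, 10 (0 to 276) in monocytes, 1 (0 to 11) in macrophages, 6 (0 to 340) in proliferating cells, 11 (7 to 94) in state 0, 2 (0 to 12) in state 2, 10 (3 to 21) in state 3, 5 (2 to 16) in state 4, 16 (15 to 112) in state 5 and 113 (131 to 137) in the interaction. When 1 library was left out, calls over all genes ran from 12 to 139 in microglia, 4 to 37 in T and NK cells, 0 to 274 in monocytes, 4 to 130 in macrophages, 12 to 778 in proliferating cells, 6 to 174, 2 to 48, 11 to 20, 15 to 33 and 30 to 141 in states 0, 2, 3, 4 and 5, and 51 to 173 in the interaction. With the replicate block, microglia had 0 and T and NK cells 90, and with the block crossed 8 and 74. Deviations of same-numbered libraries correlated at -0.22 in microglia and 0.13 in T and NK cells, and over 2 pairs with opposite signs these values do not settle whether the numbers pair the libraries. The class with the highest level was the same for 8 of 8 receptors by the mean over cells, and the state for 7 of 8. With another depth or none, 196 shares moved beyond their interval and 220 did not. Depth limits Cxcr2, Cxcr3, Cxcr6 and Ccr7 in microglia and all receptors in B cells.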

Other observations

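Cells that the authors marked as doublets, of which only the microglia and T cell doublets entered a comparison, as an alternative, carried receptors of more than 1 class. The 216 microglia and T cell doublets, from AD 1, AD 2 and ADAM 2, had Cx3cr1 at 1610, 1120 and 1049 CPM together with Cxcr6 at 158, 97.4 and 117 CPM. Microglia with a state had Cxcr6 at 0.999 to 1.496 CPM and T and NK cells at 593 to 694 CPM. The 823 doublets without a class had Cx3cr1 at 2417, 2276, 1996 and 2053 CPM in AD 1, AD 2, ADAM 1 and ADAM 2. Their Cxcr6 was 110, 44.8, 45.1 and 27.7 CPM and their Cxcr2 was 1.26, 12.3, 1.60 and 59.2 CPM, highest in ADAM 2, the library with most neutrophils.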
